A study of Mus musculus with 58 samples.

Results

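Translational efficiency (TE), the number of ribosome footprints on an mRNA relative to the amount of that mRNA, was examined in the striatum of male mice of the 3 gene (3g) line. Of the 58 libraries of the series, 12 belong to this experiment, namely 1 footprint library and 1 lysate RNA library from each of 6 animals. By the labels, both libraries of an animal were made in parallel from the same lysate, so the libraries that carry the same number were taken as 1 animal. The 3g del/+ group, labelled as a hemideletion knockout of 3 genes, held animals RIBO-302, RIBO-303 and RIBO-319, and the wt group held animals RIBO-300, RIBO-301 and RIBO-318, each named here by its footprint library. Values of single animals are given in this order. The labels give the strain of both groups as B6129S. By the description of the line, del/+ mice carry mutations that introduce a premature stop codon into 1 copy of Taok2, Sez6l2 and Mvp, and the other copy is intact. The mutations are in the germline, so no cell type is singled out. The methods of the study describe its mice in general as young adult littermates, and no age is given for these libraries in particular.

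In ribosome profiling, RNA that is not covered by a ribosome is digested and the protected fragments, the footprints, are sequenced. A change in footprints can follow a change in mRNA or a change in how densely ribosomes sit on each mRNA, and dividing footprints by the RNA of the same lysate separates the latter. TE was computed for each animal as log2 of footprint CPM over lysate RNA CPM. CPM is counts scaled by the library total after its adjustment by TMM, a normalization over the 12 libraries. A log2 TE of 0 therefore means equal normalized values and not an equal share of both libraries. A difference of 1 is a 2-fold difference in this ratio. The question put to the data was whether this ratio differed between del/+ and wt animals, which is the interaction of genotype and assay. Taok2 encodes a TAO family kinase, Sez6l2 a neuronal membrane protein of the Sez6 family and Mvp the major vault protein. Transcripts with premature stop codons are targets of nonsense-mediated decay, which removes mRNA.

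The depth of the assays was very unequal. Lysate RNA libraries held between 16249270 and 19122488 counts. The footprint libraries held 342052, 422918 and 371770 counts in the wt animals, and 527917, 678130 and 584622 in the del/+ animals. Every del/+ footprint library was therefore larger than every wt one (exact permutation test, 2-sided, p = 0.1, below which 3 against 3 animals cannot go). A gene that was tested had a median of 9.83 footprints and 229 RNA counts per library, and 971 of 15137 genes had a mean of under 1 footprint. All footprint statements below rest on counts of this size. The lysates carried striatal transcripts. Drd1, the dopamine receptor of direct-pathway neurons, had 2168 to 2715 RNA counts and 29 to 123 footprints per animal, and Ttr, the defining choroid plexus transcript, had 3 to 32 RNA counts and 0 to 7 footprints.

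The wt animal RIBO-300 stood apart. Among the 4425 genes with a mean of at least 20 footprints, 34 had a log2 TE in this animal more than 2 units above both other wt animals. The same count, against the other 2 animals of its genotype, was 0 and 7 in the other wt animals and 0, 4 and 4 in the del/+ animals. Over all 15137 genes tested the counts were closer together, at 528 in RIBO-300, 311 and 433 in the other wt animals and 215, 293 and 228 in the del/+ animals. Its footprints on Cybb numbered 1350 against 51 to 86 in the other 5 animals, and those on Reep6 542 against 5 to 17, so a gene such as Reep6 reached a mean of 20 footprints only through this animal. Called genes that rest on it are given below with and without it.

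The make-up of the footprint libraries also differed between genotypes. A group of 105 genes had far more footprints than their RNA would give, which was defined in other mice, the 16p11.2 wt animals, as a log2 ratio above 4 with at least 60 footprints there. Their ratio is reported as TE like that of other genes, and which RNA molecules gave these footprints was not tested. These high-ratio genes took 6.47%, 6.62% and 11% of footprints in the wt animals, and 4.14%, 3.92% and 4.62% in the del/+ animals. The genotypes did not overlap (exact permutation test, p = 0.1), while the same genes made up only 0.0497% to 0.0611% of the lysate RNA in every animal. The 13 mitochondrially encoded genes took 10.4%, 26.7% and 15.7% of footprints in wt animals and 32.7%, 21.8% and 22.5% in del/+ animals, which overlapped (exact permutation test, p = 0.3). In the 7 animals of the 16p11.2 line the high-ratio share was 7.30% to 12.4%, so the 3g del/+ animals and 2 of the wt animals of that line lay below all of them. The 16p11.2 wt animals had also defined the group.

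**Figure D1:**
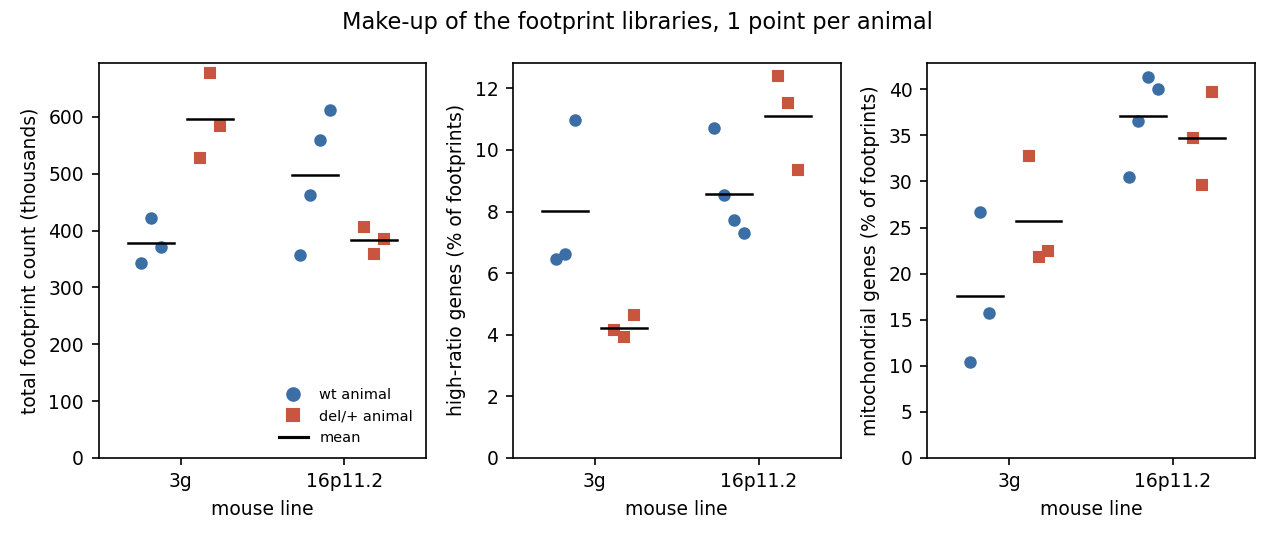
Total footprint count, share of footprints on the 105 high-ratio genes and share on the 13 mitochondrially encoded genes, with 1 point per animal (circles wt, squares del/+) and bars at the group means, for the 3g line and for the 16p11.2 line. In the 3g line del/+ animals had the larger totals and the smaller high-ratio shares, without overlap, and the mitochondrial shares overlapped.

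Sez6l2 was the targeted gene whose values were lower in del/+ animals without overlap. Its lysate RNA was at 99.1, 102 and 95.6 CPM in the wt animals and at 64.8, 71.6 and 69.4 CPM in the del/+ animals. Its footprints were at 407, 421 and 312 CPM in the wt and 209, 223 and 216 CPM in the del/+ animals. The genotypes overlapped in neither assay. The log2 change was -0.53 in RNA (standard error 0.094, adjusted p = 0.109) and -0.85 in footprints (standard error 0.224, adjusted p = 0.399). Neither was therefore called in the quasi-likelihood fit of edgeR (p-values adjusted by Benjamini and Hochberg over all genes). For this gene alone, the unadjusted p of that fit was 6.4e-05 in RNA and 0.0015 in footprints. The log2 TE of Sez6l2 was 2.03, 2.05 and 1.70 in the wt animals and 1.68, 1.64 and 1.63 in the del/+ animals, again without overlap and by a small margin. The change in TE was -0.28 (standard error 0.225, adjusted p = 0.905), and it lay between -0.39 and -0.22 with each animal left out.

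For Taok2 and Mvp the genotypes overlapped in footprint CPM, RNA CPM and TE. Taok2 had 56 to 76 footprints in wt and 81 to 99 in the larger del/+ libraries, which is 161, 115 and 147 CPM in wt and 138, 118 and 134 CPM in del/+ animals, and its log2 TE was 0.15 ± 0.35 in wt and 0.15 ± 0.26 in del/+ animals (SD, n = 3 each). Its change in TE was -0.0048 (standard error 0.249, adjusted p = 1), and the sign depended on the normalization and on the animals used. Mvp had only 1 to 7 footprints and 46 to 70 RNA counts per animal. Its log2 TE was 0.32 ± 1.18 in wt and 0.40 ± 0.85 in del/+ animals (SD, n = 3 each), a change of 0.0079 with a standard error of 0.890. With these counts and this spread between animals, the lack of a call says little about Mvp.

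**Figure D2:**
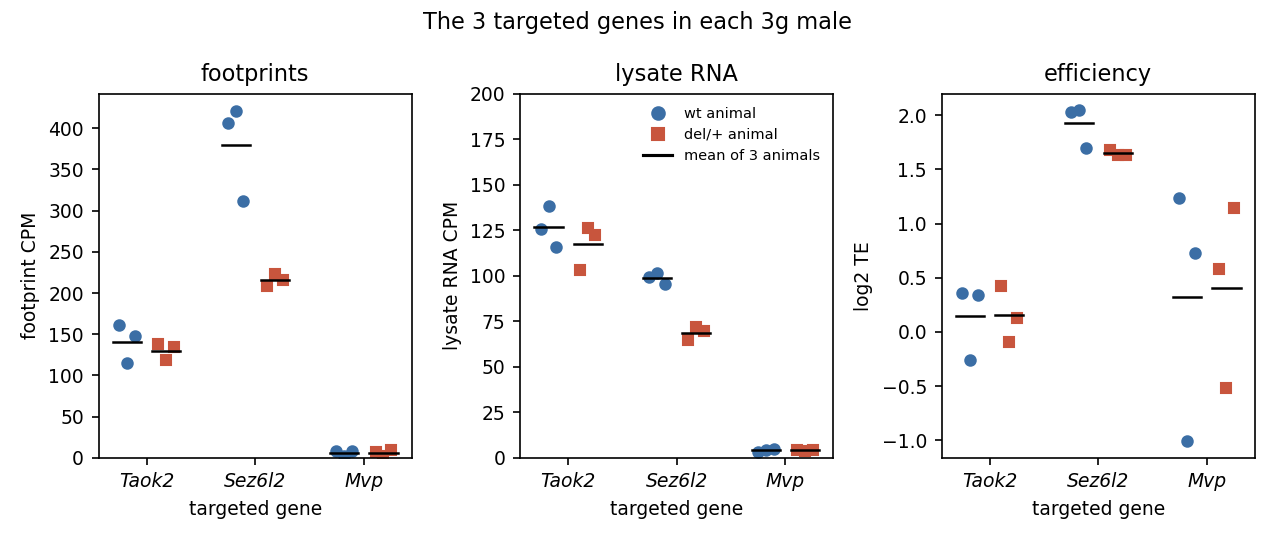
Footprint CPM, lysate RNA CPM and log2 TE of Taok2, Sez6l2 and Mvp in the 3g males, with 1 point per animal (circles wt, squares del/+) and bars at the mean of 3 animals. For Sez6l2 the 3 del/+ animals lie below the 3 wt animals in each panel, and for Taok2 and Mvp the genotypes overlap.

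Across the transcriptome, few genes were called for a difference in TE. The interaction of genotype and assay, with the animal as a block, was called for 10 of 15137 genes (0.0661%), of which 8 were lower (0.0529%) and 2 higher (0.0132%) in del/+ animals. At an unadjusted p under 0.05 there were 965 genes (6.38%), 503 higher (3.32%) and 462 lower (3.05%). The genotypes did not overlap in log2 TE for 11.9% of the genes tested, 6.23% with del/+ above wt and 5.62% below. The 10 calls did not hold in every model. With no replicate block the same test called 0 genes (1161 at an unadjusted p under 0.05), and so did limma on 1 ratio per animal (897) and voom with the animal as a random effect (1174), while DESeq2 called 7, of which 6 were shared. Leaving out wt animal RIBO-300, RIBO-301 or RIBO-318 gave 38, 111 and 51 calls, and leaving out del/+ animal RIBO-302, RIBO-303 or RIBO-319 gave 11, 3 and 3.

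Either assay on its own gave fewer calls in this fit, though neither did with DESeq2, nor footprints with no filter on low counts. In footprints alone 1 of 7553 genes was called (0.0132%), Fzd8, which fell, with 602 genes at an unadjusted p under 0.05 (7.97%) and 9 calls by DESeq2. That count was 24, 21 and 5 without wt animal RIBO-300, RIBO-301 or RIBO-318, and 0 without any of the del/+ animals. In lysate RNA alone 3 of 14378 genes were called (0.0209%), 1 higher (0.00696%) and 2 lower (0.0139%), with 707 genes at an unadjusted p under 0.05 (4.92%) and 13 calls by DESeq2. That count was 5, 6 and 5 without wt animal RIBO-300, wt animal RIBO-301 or del/+ animal RIBO-303, and 12 without del/+ animal RIBO-302.

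The genes called in lysate RNA, named after their values were seen, were Cfap54, Ndn and Rpl29. Cfap54, a cilia and flagella protein gene, had 1041, 849 and 790 RNA counts in wt and 419, 315 and 284 in del/+ animals, and its RNA fell by 1.39 on the log2 scale (adjusted p = 0.000603). Its footprints were 18, 22 and 18 against 7, 10 and 5, and its TE change was -0.58 (adjusted p = 0.871). The imprinted gene Ndn had 744, 697 and 695 RNA counts in wt and 363, 341 and 382 in del/+ animals, and its RNA fell by 0.98 (adjusted p = 0.0011) with a TE change of 0.29 (adjusted p = 0.951). Rpl29, a ribosomal protein gene, had 160, 102 and 109 RNA counts in wt and 328, 324 and 289 in del/+ animals, a rise of 1.36 (adjusted p = 0.00135). It had 2 to 6 footprints per animal, and ribosomal protein genes share sequence with many processed pseudogenes, so its count is uncertain.

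Of the 8 genes with lower TE, Sertad4 and Fzd8 had the smallest adjusted p. Sertad4, a gene of the SERTA domain family, had 399, 156 and 179 footprints in the wt animals and 101, 83 and 84 in the del/+ animals, despite the larger del/+ libraries, with 376 to 441 RNA counts throughout. Its log2 TE fell from 4.02 ± 0.75 to 2.11 ± 0.52 (SD, n = 3 each), a change of -1.93 (standard error 0.278, adjusted p = 7.17e-05). Without wt animal RIBO-300, its highest animal, the change was -1.48 and the gene stayed called. Fzd8, a frizzled receptor for Wnt ligands, had 465, 306 and 328 footprints in wt and 156, 176 and 190 in del/+ animals against only 49 to 111 RNA counts. Its log2 TE fell from 7.19 ± 0.13 to 5.65 ± 0.21 (SD, n = 3 each), a change of -1.52 (standard error 0.254, adjusted p = 0.00123), with the 3 animals of each genotype close together.

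Washc1, Galk2 and Tex52 fell by similar amounts. In each the genotypes did not overlap, which is no further support, since the genes were chosen by their difference in TE. Washc1, a subunit of the endosomal WASH complex, had a log2 TE of 6.15, 6.25 and 6.55 in wt and 5.64, 5.14 and 4.72 in del/+ animals, a change of -1.16 (standard error 0.233, adjusted p = 0.0258). Its footprints were 788 to 852 in wt and 694 to 1106 in del/+ animals, and its RNA counts 255 to 388 and 403 to 523, so footprints and RNA both entered the difference. Galk2, an N-acetylgalactosamine kinase, had a log2 TE of 7.40 ± 0.38 in wt and 6.19 ± 0.56 in del/+ animals (SD, n = 3 each), a change of -1.24 (adjusted p = 0.0309). Tex52, a gene named for expression in testis, had 461 to 545 footprints in wt and 219 to 295 in del/+ animals on only 16 to 32 RNA counts, a TE change of -1.59 (adjusted p = 0.0319).

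Dap3, which encodes a protein of the small mitochondrial ribosomal subunit, was the most heavily covered of the called genes. It alone took 1.07%, 1.75% and 3.59% of all footprints in the wt animals and 0.570%, 0.505% and 1.19% in the del/+ animals, on 279 to 334 RNA counts. Its log2 TE was 8.676, 9.44 and 10.27 in the wt animals and 7.86, 7.41 and 8.685 in the del/+ animals. The highest del/+ animal therefore lay just above the lowest wt animal, and the genotypes overlapped. The change was -1.48 (standard error 0.302, adjusted p = 0.0272).

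Cybb and Reep6 rested in part or wholly on wt animal RIBO-300. Cybb, the catalytic subunit of the phagocyte NADPH oxidase, had a log2 TE of 6.68, 2.63 and 2.38 in the wt animals and of 1.40, 1.13 and 1.2 in the del/+ animals. Its change was -2.74 (adjusted p = 0.00456), and without animal RIBO-300 it was -1.28 with the call kept (adjusted p = 0.0032). Reep6, of a family of proteins that shape the endoplasmic reticulum, had a log2 TE of 6.83, 1.5 and 1.30 in wt and -0.14, 0.04 and 1.25 in del/+ animals. Its change of -3.39 (adjusted p = 0.0309) became -0.92 without animal RIBO-300 (adjusted p = 0.961). DESeq2 called neither of these genes, nor Tex52 and Igip (adjusted p = 0.0509 and 0.0632).

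The 2 genes with higher TE had low ratios in wt animals. Usp31, a deubiquitinating enzyme, had 14, 15 and 20 footprints in wt and 52, 90 and 65 in del/+ animals on 1872 to 2420 RNA counts. Its log2 TE rose from -2.13 ± 0.28 to -0.79 ± 0.13 (SD, n = 3 each), a change of 1.34 (standard error 0.288, adjusted p = 0.0374). Igip, which encodes a small secreted peptide, had 4, 3 and 5 footprints in wt and 24, 23 and 24 in del/+ animals on 1517 to 2018 RNA counts. Its log2 TE rose from -3.87 ± 0.38 to -1.91 ± 0.40 (SD, n = 3 each), a change of 1.96 (standard error 0.426, adjusted p = 0.0397), and its counts were too low for the stricter filter of 20 footprints.

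**Figure D3:**
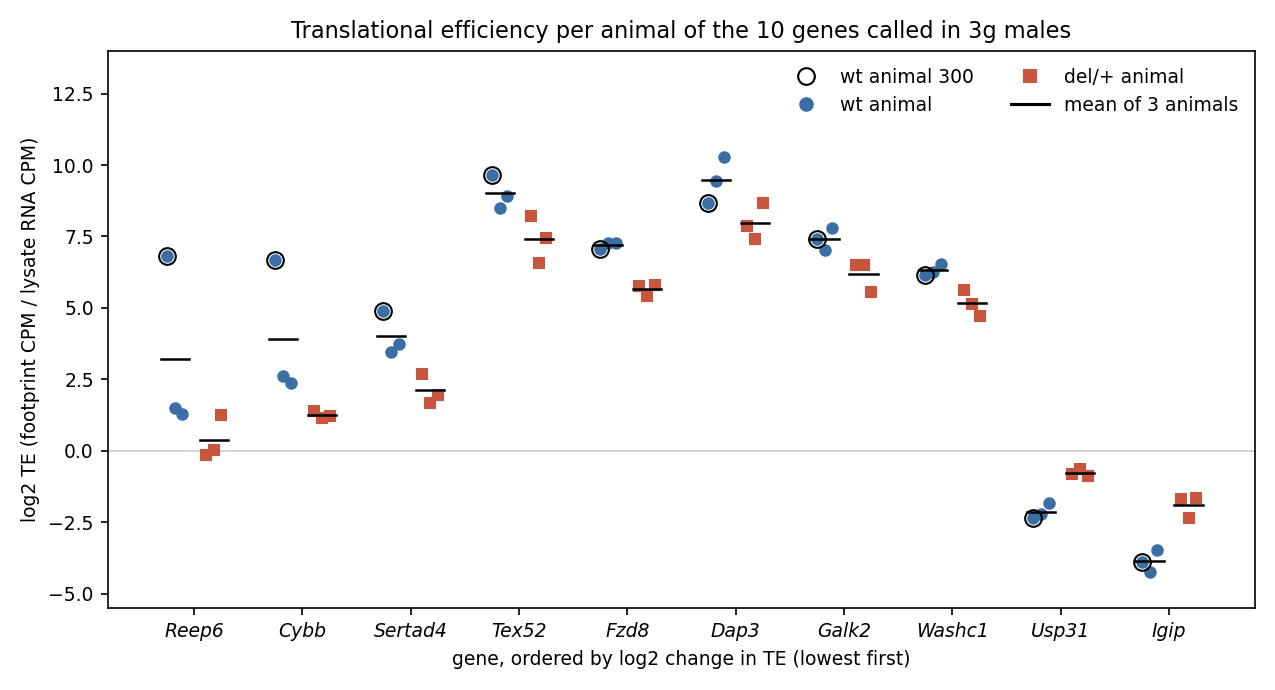
Log2 TE of the 10 called genes in each 3g male, with 1 point per animal (circles wt, squares del/+, ringed circles wt animal RIBO-300) and bars at the mean of 3 animals, ordered by the change. The genes were chosen by their difference in these values, so separation of the genotypes is no further support. Genotypes do not overlap in 9 genes, as in 11.9% of all genes tested, and overlap slightly in Dap3. The wt mean of Reep6 and of Cybb is drawn up by animal RIBO-300.

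Which of these genes were called depended on the animals. Sertad4 was called in each of the 6 fits that left out an animal, and was the only one of the 10 that was still called without del/+ animal RIBO-303, where the adjusted p of Fzd8 was 0.0857. Sertad4, Fzd8 and Dap3 were called without del/+ animal RIBO-319. Dap3, Reep6, Usp31 and Igip were lost without del/+ animal RIBO-302, Dap3 and Galk2 without wt animal RIBO-318, and Reep6 without wt animal RIBO-300, while leaving out wt animal RIBO-301 lost none. The direction of all 10 was the same in these 6 fits. With genes limited to a mean of at least 20 footprints Fzd8 was the only call (adjusted p = 0.0176), and Sertad4 was not called (adjusted p = 0.0818).

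The next 10 genes by p were not called, and they were chosen from the same values that are compared here. Cnnm4, a magnesium transporter, was nearest, with a log2 TE of 5.48, 4.08 and 4.54 in wt and 3.46, 3.52 and 3.52 in del/+ animals and a change of -1.22 (adjusted p = 0.053). Kctd20 had a change of -1.27 (adjusted p = 0.112) without overlap, and Lrrn4 one of -2.28 with overlap. Ankrd35, Asl and Coq9, with changes of -3.87, -2.47 and -2.0, each had their highest log2 TE in wt animal RIBO-300 and overlapped otherwise. Without that animal their log2 change in TE was -0.40, -0.11 and -0.31. Of Asl, the argininosuccinate lyase of the urea cycle, that animal had 514 footprints and the others 10 to 32.

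Values in the other direction came from genes with few footprints. Lrrtm4, a synaptic adhesion protein, had 1, 6 and 13 footprints in wt and 34, 25 and 30 in del/+ animals, a TE change of 1.79 (adjusted p = 0.0979). Smim20, a small mitochondrial membrane protein, had 4, 14 and 7 in wt and 40, 56 and 30 in del/+ animals, a change of 1.77 (adjusted p = 0.0979). Both had genotypes that did not overlap. Of the predicted gene Gm20721 del/+ animals RIBO-302 and RIBO-319 had 49 and 14 footprints and the other animals 0 or 1, so no fold is given. The remaining gene of these 10, the unnamed ENSMUSG00000118491, had a lower TE in del/+ animals, but its RNA count was 0 in 4 animals and no fold is given for it either.

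The called genes were not spread evenly over the range of TE. The 105 high-ratio genes, of 15137 genes tested, were defined only in 16p11.2 wt animals, with at least 60 footprints there. They held 5 of the 8 genes called lower (Fzd8, Washc1, Dap3, Galk2 and Tex52) and none of those called higher. Their change in TE was below 0 for 84 of 105 genes, with a median of -0.57 against -0.014 over all genes tested, and for 18 of them all del/+ animals lay below all wt animals, where 5.62% of all genes did. The median was between -0.88 and -0.47 with each animal left out and -0.61 without wt animal RIBO-300. It was -0.58 with all footprint libraries thinned to the same total. By animal, the median log2 TE of these genes was 5.84, 5.29 and 6.06 in the wt animals and 5.40, 5.26 and 4.90 in the del/+ animals, which overlapped.

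The tendency ran through the whole range. The 4489 genes with at least 60 footprints in the 16p11.2 wt animals were ordered by their footprint to RNA ratio in those animals and cut into 10 bins of 448 or 449 genes. The median change in TE in the 3g animals was 0.28 in the bin of the lowest ratios, where 78.2% of genes were above 0. It was 0.016 in the fifth bin and -0.25 in the bin of the highest ratios, where 24.1% were above 0. Spearman's rho between ratio and change was -0.41 across these genes, which share the same 12 libraries and are not independent, and -0.41 to -0.29 with each animal left out. The change was in footprints, whose median went from 0.26 in the lowest to -0.30 in the highest bin, while that of RNA was 0.035 and -0.030. Only 8 genes in all bins were called, 1 higher in the second bin and 7 lower in the highest.

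With the footprint libraries thinned to the smallest total, the medians of the lowest and the highest bin were 0.26 and -0.25, and without wt animal RIBO-300 they were 0.16 and -0.20. The median log2 TE of the lowest bin was -2.01, -1.72 and -1.63 in wt and -1.55, -1.52 and -1.47 in del/+ animals. That of the highest bin was 1.88, 1.90 and 1.88 in wt and 1.74, 1.73 and 1.60 in del/+ animals. In both bins the genotypes did not overlap, so the range of TE was narrower in del/+ animals. Total footprint count moved with genotype in the same animals, and what remained of its part after thinning was not tested.

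**Figure D4:**
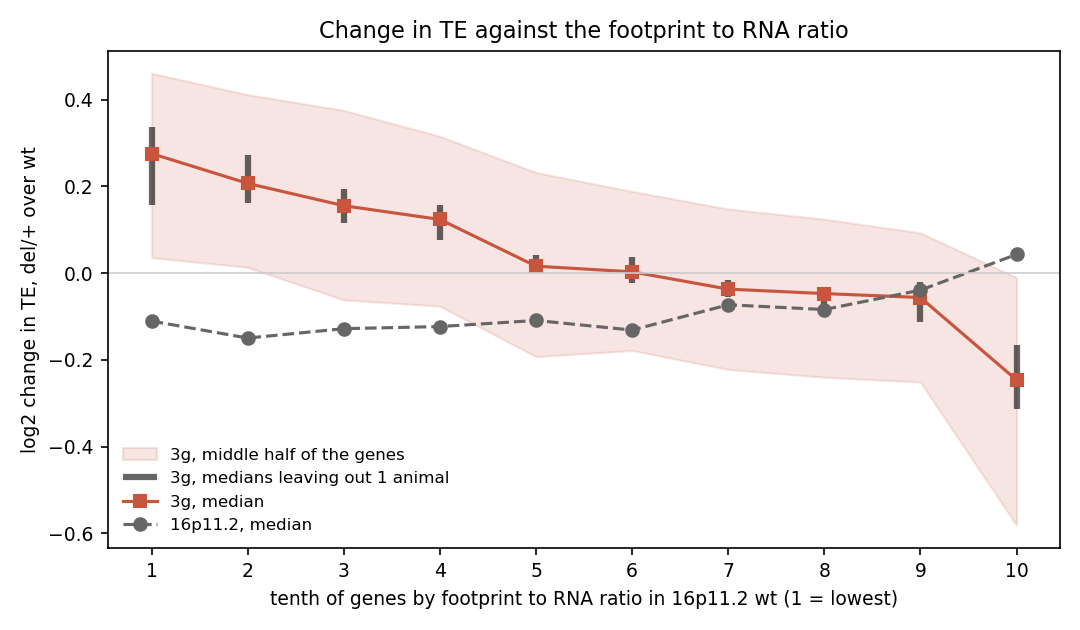
Change in log2 TE (del/+ over wt) against bins of genes ordered by their footprint to RNA ratio in 16p11.2 wt animals, from 1 (lowest ratios) to 10 (highest). Squares are medians in the 3g line, falling from 0.28 to -0.25, shading is the interquartile range of the genes, dark bars span the medians with each animal left out, and circles are the medians in the 16p11.2 line, whose wt animals also set the order.

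The mitochondrially encoded genes, whose mRNAs are translated inside mitochondria, were all above 0. The 13 genes had a median change in TE of 0.84 and 0 were called. At an unadjusted p under 0.05, 11 of the 13 were higher, beside 3.32% of all genes tested. The footprints on mt-Co1, a core subunit of cytochrome oxidase, were 7742, 21538 and 10219 in the wt animals and 33087, 26988 and 23808 in the del/+ animals. Its log2 TE was -2.57, -1.13 and -2.0 in the wt and -0.78, -1.31 and -0.89 in the del/+ animals, so wt animal RIBO-301 lay among the del/+ animals. The changes were 0.91 for mt-Co1 (adjusted p = 0.502), 0.68 for mt-Cytb (adjusted p = 0.739) and 1.04 for mt-Nd1 (adjusted p = 0.381). In none of the 13 did the genotypes separate, and the median was 0.38 without wt animal RIBO-300 and 1.24 without wt animal RIBO-301. The 77 nuclear genes of oxidative phosphorylation had a median of 0.038 with 0 called, for example Cox8a at 0.12 (adjusted p = 0.976).

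Many mRNAs for ribosomal proteins and translation factors begin with a terminal oligopyrimidine tract, a C at the first base followed by pyrimidines, through which mTOR signalling controls their translation as a group. The first 20 bases from the RefSeq start, on the strand of the transcript, are shown for the ribosomal protein and translation factor genes with the most footprints that had an entry, and for the 3 further ribosomal protein genes with the most footprints among those with a run (RefSeq, GRCm38.p6). Capitals mark the longest run of a C followed by at least 5 C or T bases, which need not begin at the first base. The starts were chr7:45128726-45128745 (minus strand) for Rpl13a, chr7:109519195-109519214 (plus) for Rpl27a, chr19:6057947-6057966 (plus) for Fau, chr11:114668580-114668599 (plus) for Rpl38, chr7:99483690-99483709 (minus) for Rps3, chr2:181156996-181157015 (minus) for Eef1a2 and chr10:81176631-81176650 (plus) for Eef2.
Rpl13a: gaCCTCCTCCTTTCCCaggc
Rpl27a: tCCCTTTTCCCTTTCTgcca
Fau: CTTCCTCTTTCTTgactcca
Rpl38: CTTTCCCCgttctcttcggt
Rps3: gcgctgcgcggcgtcattgc
Eef1a2: gttctcgctcactggttctc
Eef2: gttgacgtcagcggtctctt
RefSeq starts can lie some bases from the start in use, so a gene without a run here may still have one.

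The ribosomal proteins had a median near that of all genes. Their ratio was low, with a median log2 TE of -2.14 in wt and -2.18 in del/+ animals. The median change over the 82 genes was -0.019, with 0 called. At an unadjusted p under 0.05, 6 of the 82 were lower and 0 higher, beside 3.05% and 3.32% of all genes tested. The animal medians were -1.98, -2.06 and -2.06 in wt and -2.10, -2.08 and -2.10 in del/+ animals, each wt median lying slightly above each del/+ median. Rpl13a had a change of -0.29 (adjusted p = 0.928) and Rps3 one of -0.18 (adjusted p = 0.968), and Rplp1 a log2 TE of -0.38 ± 0.43 in wt and -0.39 ± 0.11 in del/+ animals (SD, n = 3 each). A gene was counted if such a pyrimidine run lay anywhere in the first 20 bases of any of its RefSeq starts. This held for 27 of the 61 ribosomal protein genes with a RefSeq entry (44.3%) and 1993 of the 11674 tested genes with one (17.1%). Counted by start and not by gene, 14% of 32851 RefSeq starts had a run. The median change was -0.21 for the 27 genes with and 0.018 for the 34 without a run, and over all tested genes it was 0.0039 with and -0.018 without. The median log2 TE of the 27 genes was -2.17, -1.79 and -2.06 in wt and -2.16, -2.02 and -2.11 in del/+ animals, so the genotypes overlapped.

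Translation factors and the kinases upstream of them gave no calls either. The 51 initiation, elongation and termination factors had a median change of 0.047. At an unadjusted p under 0.05, 5 of the 51 were higher and 1 lower, beside 3.32% and 3.05% of all genes tested. By animal, the median log2 TE of these factors was -1.42, -0.852 and -1.15 in wt and -0.752, -0.829 and -0.841 in del/+ animals. The genotypes did not overlap, but RIBO-301 and RIBO-319 nearly met. With each animal left out the median change was between -0.0053 and 0.23. The elongation factors Eef2 and Eef1a2 were at 0.047 and -0.094, and Eif4g2, an initiation factor for cap-independent translation, at 0.45 (adjusted p = 0.806). Among 38 kinases and regulators of translation, the median was 0.14, and 23 were above 0. Cyfip2, a partner of the fragile X protein, was at 0.16, and Akt1 at -0.32 (adjusted p = 0.914) with wt animal RIBO-300 high and 0.056 without that animal. The 25 integrated stress response genes, many of which carry upstream open reading frames, had a median of -0.026, with Atf4 at 0.081, Slc3a2 at 0.28 and Vldlr at -0.24.

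Genes of striatal neurons and synapses had medians near that of all genes. The 35 striatal projection neuron genes had a median change of 0.014 with 0 called. Adcy5, the adenylyl cyclase coupled to striatal dopamine receptors, had a log2 TE of 0.76 ± 0.27 in wt and 0.76 ± 0.16 in del/+ animals, and Penk, the enkephalin precursor of indirect-pathway neurons, 1.61 ± 0.36 and 1.60 ± 0.20 (SD, n = 3 each). Arpp21, an RNA-binding phosphoprotein of these neurons, was at 0.33 (adjusted p = 0.871). The 42 glutamate synapse genes had a median of 0.061. Camk2a, a synaptic kinase subunit, was at -0.14. Of 27 activity-induced genes (median -0.013), Homer1 was at 0.37 and Arc at -0.36, and neither was called (adjusted p = 0.851 and 0.885). Neither overlapped, as in 11.9% of all genes tested. For Arc the log2 TE all but met, at -0.259 in wt animal RIBO-301 and -0.262 in del/+ animal RIBO-303.

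No other list had a called member. The 22 tested genes that neighbour the targeted genes in the 16p11.2 region had a median of -0.071, with the glycolytic enzyme gene Aldoa at -0.11. The 17 replication-dependent histone genes had a median of -0.27, which was -0.0061 without wt animal RIBO-300 and -0.52 without wt animal RIBO-318, with Hist1h4d at 0.36 and Hist1h1e at -0.32. Histone genes are near-identical copies, so their counts are uncertain. The markers of other cell types had medians of -0.058 in oligodendrocytes (17 genes, with Mbp at -0.13), 0.036 in astrocytes (16 genes, with Slc1a2 at 0.34), -0.15 in microglia (16 genes, with Ctss at -0.53), 0.084 in brain endothelium (15 genes) and 0.070 in choroid plexus (9 genes, with Igf2 at -0.33). Igf2 had 1997 to 3047 RNA counts per animal, far more than Ttr, so it may not report on choroid plexus here. Which cells gave its RNA was not tested. The endothelial receptor gene Kdr, 1 of the high-ratio genes, had a change of -1.0 with overlap (adjusted p = 0.381).

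The 12 cortical neuron markers, which a striatal dissection could carry over, had a median change in TE of 0.25, with 10 above 0 and 0 called, and Slc17a7, the vesicular glutamate transporter of cortical inputs, was at 0.23 and Lamp5 at 0.36. The summed RNA of the list was scaled by the library totals alone, without TMM. It was 829, 445 and 648 CPM in wt and 756, 850 and 558 CPM in del/+ animals, which overlapped. The part of dissection in these values was not tested. In bulk tissue, fewer cells of a type and less RNA per cell cannot be told apart.

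**Figure D5:**
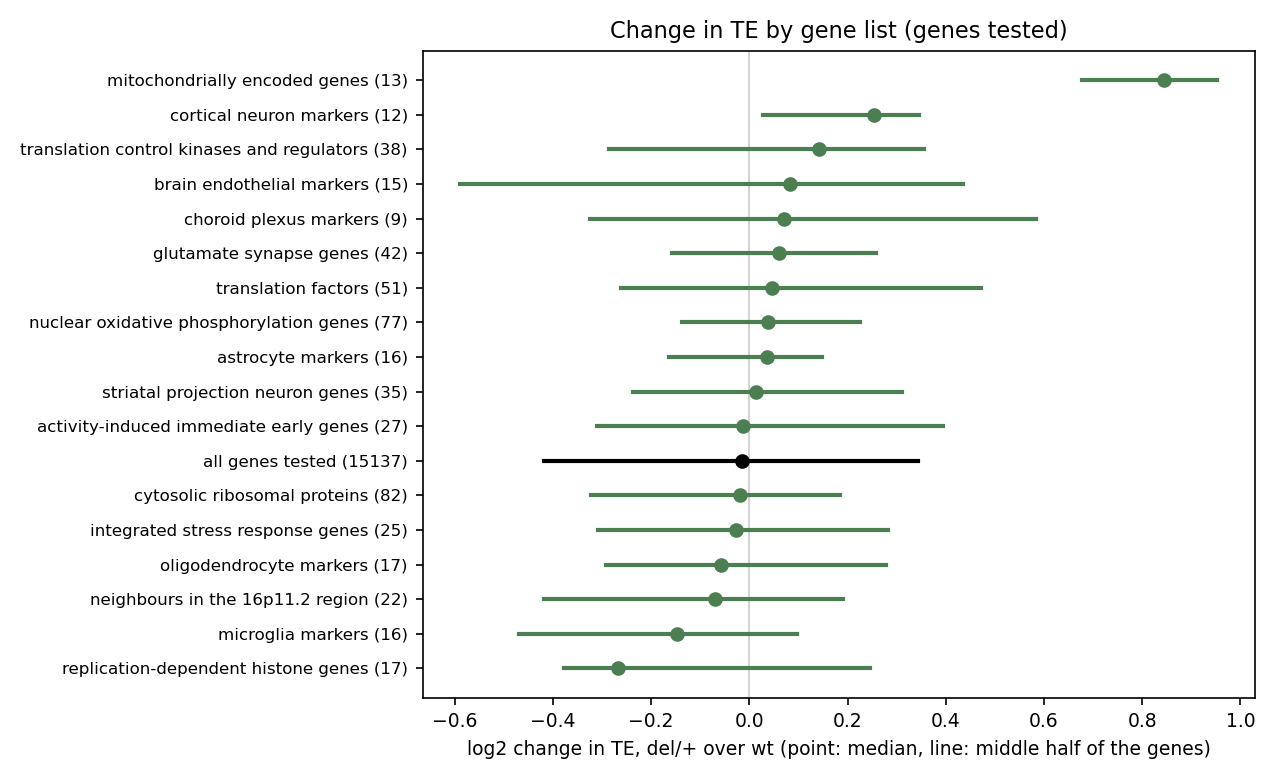
Change in log2 TE (del/+ over wt) for each gene list, with the number of genes tested in parentheses, a point at the median and a line over the interquartile range, and all genes tested in black. The mitochondrially encoded genes lie highest with a median of 0.84, and the median of all genes is -0.014.

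The same interaction in males with a hemideletion of the whole 16p11.2 region (3 del/+ and 4 wt animals, with other animals in both groups) was called for 10 of 15071 genes (0.0664%), 9 of them higher (0.0597%) and 1 lower (0.00664%). The difference between the lines was called for 45 of 16337 genes (0.275%), 14 higher (0.0857%) and 31 lower (0.19%) in 3g, with 1160 at an unadjusted p under 0.05 (7.1%), 17 calls by DESeq2, 1 with no replicate block, 125 without 3g wt animal RIBO-301 and 70 without 3g wt animal RIBO-318. With RLE in place of TMM scaling the median difference over all genes moved from 0.085 to -0.016, and 6 genes were then higher and 34 lower. Of the 10 genes called in 3g, 9 differed between the lines, Igip being the exception, and both tests use the same 3g animals. High-ratio genes made up 12 of the 45, and all 12 were lower in 3g. This group held 105 of the 15137 genes tested for TE in 3g animals. It was defined by at least 60 footprints and a high ratio in the 16p11.2 wt animals, which are also part of this comparison. Its count is therefore no independent support. Fzd8 had a change of -1.52 in 3g and of 0.96 in 16p11.2 animals, and Tex52 of -1.59 and of 1.08. The 16p11.2 changes of both genes were not called (adjusted p = 0.0679 and 0.0716). The medians of the lowest and highest ratio bins were -0.11 and 0.043 in the 16p11.2 line, whose wt animals also set the order of the genes.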

How the data were processed

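The values were deposited by the authors as raw, whole-number counts per Ensembl gene, for 18411 genes in a footprint and a lysate RNA table. Per the labels' processing notes reads were aligned with Bowtie2 to mm39. The counting tool, the annotation and the part of the transcript counted are not given in the sources used here. The footprint counts are a small part of the reads that the labels ask for. Replicates were separate animals. The 8 largest RNA counts end in 0, as after rounding to 6 digits.

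Tables were joined by gene ID, and 18377 IDs were matched to symbols. Counts were tested in R 4.3.3 with edgeR 4.0.16 (TMM over the 12 libraries, filterByExpr, quasi-likelihood test of the genotype by assay interaction with the animal as block, Benjamini-Hochberg adjusted p under 0.05). Log2 TE used a prior count of 2. Standard errors of the edgeR fits were derived as the absolute log2 change over the square root of the F statistic. The pairing came from the labels (same lysate). Over 4425 genes, the deviations of footprints and RNA from their group means correlated by 0.042 to 0.363 within an animal, and 4 of 6 footprint libraries correlated best with their own number (RIBO-301 and RIBO-318 with the RNA of other animals). The named genes were the 3 targeted genes, the called genes filled up to 20 by p, and the members with the most footprints of each list. Members and lists were chosen with earlier results of these data known. The scripts were tested on simulated data. Alternatives were limma 3.58.1, voom, DESeq2 1.42.0, other scalings, filters and thresholds, thinning, no block, each animal left out and, chosen after seeing the data, leaving out mitochondrial and high-ratio genes. RNA-seq of other animals was not used. Some named list members are not reported here.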

Additional observations from a re-analysis of the deposited data

Results flagged for a closer look

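For these genes the genotype effect on TE differed between the 3g and the 16p11.2 line in edgeR's quasi-likelihood test of the 3-way interaction (adjusted p under 0.05 over 16337 genes). The difference, as the log2 change in 3g minus that in 16p11.2 animals, was -2.47 for Fzd8 (adjusted p = 4.33e-06), -2.65 for Tex52, -2.16 for Sertad4, -1.88 for Dap3, -1.65 for Washc1, -1.51 for Galk2 and -1.97 for Cnnm4. These genes kept an adjusted p under 0.05 without wt animal RIBO-300, with differences of -2.57, -2.35, -1.73, -2.29, -1.76, -1.55 and -1.58. For Cybb the difference was -2.95 and became -1.45 without that animal (adjusted p = 0.0231).

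For 5 further genes the difference was called only with wt animal RIBO-300 in the fit. It was -3.89 for Reep6 and -1.56 without the animal (adjusted p = 0.818), -2.87 for Asl and -0.64 without it (adjusted p = 0.976), and -1.96 for Kdr and -1.64 without it (adjusted p = 0.0608). It was 1.65 for Usp31 and 1.52 without it (adjusted p = 0.0608), and 1.43 for mt-Nd1 and 0.99 without it (adjusted p = 0.0743).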

How the results depend on the processing

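With a median of 9.83 footprints per gene, depth limited the precision for most genes. The 10 TE calls became 18 at an adjusted p under 0.10 and 965 at an unadjusted p under 0.05. They became 68 with no filter on low counts and 1 (Fzd8) with a mean count of at least 20. They became 0 with limma on 1 ratio per animal, 0 with voom and, in the fit with no replicate block, 0. The fit without mitochondrial and high-ratio genes gave 5 calls, of which 4 were shared. It could not call Fzd8, Washc1, Dap3, Galk2 or Tex52, which it left out. Leaving out each animal gave 3 to 111. The 1 footprint call became 7 at an adjusted p under 0.10, 602 at an unadjusted p under 0.05, 9 with DESeq2, 127 with no filter and 4 after thinning, and 0 to 24 with an animal left out. The 3 RNA calls became 7, 707, 13 and 9 in the first 4 of these, and 3 to 12. The 45 line differences became 1160 at an unadjusted p under 0.05, 17 with DESeq2, 69 with no filter, 16 with a mean count of at least 20, 1 with no replicate block, and 36 to 125. The causes were not tested. The log2 change in TE of Taok2 turned to 0.0075 with limma, 0.020 with TMM within each assay and 0.010 without mitochondrial and high-ratio genes (-0.21 to 0.12 with an animal left out), and the log2 change in TE of Mvp to -0.00074 with DESeq2 and -0.058 with voom (-0.46 to 0.44). Leaving out an animal also turned the sign of the log2 change in TE of Akt1 (-0.65 to 0.056), the log2 change in TE of Aldoa (-0.21 to 0.046), the log2 change in TE of Atf4 (-0.091 to 0.30), the log2 change in TE of Cox8a (-0.054 to 0.26), the log2 change in TE of Eef1a2 (-0.26 to 0.016), the log2 change in TE of Eef2 (-0.045 to 0.18) and the log2 change in TE of Rps3 (-0.42 to 0.063).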
